A study of Mus musculus with 9 samples.

Results

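The Tceal and Bex genes were described in primary mouse neurons in which Tdp-43 had been knocked down. The members are Tceal1, Tceal3, Tceal5, Tceal6, Tceal7, Tceal8, Bex1, Bex2 and Bex4, 9 genes in all, set among the 16770 genes that could be tested on the array. Members were chosen by name: a probe set belonged to a member when the array's annotation gave that symbol and no other. Of the 9 members, 8 have such a probe set, and Tceal7 has none and is not analysed here. The 8 genes are named by 57 probe sets, of which 52 entered the gene values.

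Cortical neurons came from C57BL/6 mouse embryos at embryonic day 15 and received AraC, which stops dividing cells, on day 2 of culture. On day 5 they were exposed for 4 h to a lentivirus that delivers a short hairpin RNA (shRNA), and RNA was taken on day 11, after 6 more days. Of the 3 groups of 3 arrays, the one named shCont received a control hairpin, and those named shTdp-43-1 and shTdp-43-2 each received a different hairpin directed at Tdp-43. All groups thus share the virus, the medium with BDNF and CNTF and the AraC step, and the labels do not say whether the arrays of a group came from separate cultures, so the p-values measure the spread between these arrays, which may be technical. The series is described as a study of motor neurons, but its sample labels name cortical neurons and were followed. Of 7 listed neuronal markers 6 had enough probe sets above the table median to be tested, Tubb3 and Map2 among them, and of 5 motor neuron markers 4 had. Levels of different genes cannot be set against each other on this array, so these values do not decide between the descriptions.

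Tceal stands for transcription elongation factor A-like: the proteins are small and resemble part of the elongation factor TFIIS, which helps stalled RNA polymerase II to resume. Bex stands for brain expressed, X-linked: these are small adaptor-like proteins, abundant in neurons, of which Bex1 and Bex3 bind the p75 neurotrophin receptor. Both groups belong to one mammalian gene family whose members lie close together on chromosome X. Tdp-43, the product of Tardbp, is an RNA-binding protein that regulates splicing and RNA stability and is deposited in neurons in amyotrophic lateral sclerosis.

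In the RefSeq gene table the members follow the order Tceal6, Bex2, Bex4, Tceal8, Tceal5, Bex1, Tceal7, Tceal3 and Tceal1 along chromosome X. Their relatives Tceal9 and Bex3 lie between Tceal7 and Tceal3. Names need care here, since RefSeq lists Bex1 as an older symbol of Bex2 and Bex4 as an older symbol of Bex1. A probe set annotated with an old name would then be counted under the wrong gene.

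Most members share short letter patterns in their promoters. These are shown here because the rule did not use them and because members that were called and members that were not have them in common. Windows of 300 bases, from 250 before to 50 after each annotated start, were taken from RefSeq on build GRCm38.p6 for 27025 genes, and all 9 members matched. The letters CACGTG, known as an E-box core, were found in a window of 8 of the 9 members, all but Bex2, against 8.09% of all genes. The search covered both strands, and CACGTG reads the same on both. The longer palindrome TCACGTGA, which contains CACGTG, was found in 6 members and in 1.12% of genes. The letters TGACG, part of the cyclic AMP response element, were found on one strand or the other in 9 of 9 members and in 23.0% of genes. After the sequences had been read, both were searched together at the spacing seen in them. TGACG followed by 7 bases of any kind and CACGTG, or the reverse complement, was present in 6 members and in 0.0629% of genes, 17 genes in all. Of these 17 genes 8 are on chromosome X: Tceal3, Tceal5, Tceal6, Tceal8, Bex1, Bex4 and the neighbouring Armcx1 and Armcx6. A spacing of 9 bases was found in Tceal1, Bex3 and Armcx4 and in 0.0222% of genes. In the stretches below, written 5′ to 3′ along the gene's strand, capitals mark TGACG and CACGTG. Tceal3, Tceal5 and Tceal6 come first because they were the genes raised by both hairpins. Tceal8, Tceal1 and Bex1 follow as members with the same letters that were not called with both hairpins. A second CACGTG, at the 3′ end of the Tceal6 stretch, is left in lower case.
Tceal3: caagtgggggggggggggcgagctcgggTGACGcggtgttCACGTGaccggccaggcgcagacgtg
Tceal5: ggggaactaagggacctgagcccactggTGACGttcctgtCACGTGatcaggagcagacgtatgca
Tceal6: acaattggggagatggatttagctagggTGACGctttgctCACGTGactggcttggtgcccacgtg
Tceal8: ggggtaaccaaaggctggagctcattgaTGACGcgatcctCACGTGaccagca
Tceal1: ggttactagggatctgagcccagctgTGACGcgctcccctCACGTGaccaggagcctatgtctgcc
Bex1: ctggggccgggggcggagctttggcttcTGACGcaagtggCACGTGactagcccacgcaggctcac

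The stretches lie at chrX:136666338-136666403 (plus strand) for Tceal3, chrX:136203874-136203939 (minus) for Tceal5, chrX:135210676-135210741 (minus) for Tceal6, chrX:136172222-136172274 (minus) for Tceal8, chrX:136707941-136708006 (plus) for Tceal1 and chrX:136215491-136215556 (minus) for Bex1. The stretch of Bex4, at chrX:136138947-136139012 on the plus strand, is identical to that of Bex1 over all 66 bases, and the windows of these genes share a run of 271 identical bases. Bex2 and Bex3 share a run of 162 bases. Tceal3 and Tceal6, in contrast, share no run longer than 18 bases, although 68.2% of their 66 positions aligned at CACGTG are identical. That pair is the most alike after Bex1 and Bex4. The same share was 42.4% for Tceal3 and Tceal5. For Tceal5 and Tceal6 it was 33.3%, the lowest of all pairs, and the marked letters count towards each of these shares. A match of letters is a description and says nothing about binding, and the absence of CACGTG from the Bex2 window concerns this window alone.

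The array carries probe sets along the exons of a gene, and a gene value is the mean log2 intensity of those probe sets which name it and no other gene and whose mean over the 9 arrays reached the table's median of 6.07. These means chose the probe sets. The dimmest one kept was Tceal6 5574935 at 6.79, and the brightest one left out was Tceal5 5462331 at 5.97. The gene values rest on 4 probe sets for Tceal1, 8 for Tceal3, 7 for Tceal5, 3 for Tceal6, 3 for Tceal8, 10 for Bex1, 4 for Bex2 and 13 for Bex4. A further 4 probe sets name both Tceal3 and Tceal6, entered no gene value and were read alone. Each gene or probe set was compared only with itself across groups, and a summed level of markers, given below, only with the same sum in the other groups.

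Tardbp read 30.4% of the control with shTdp-43-1 and 30.9% with shTdp-43-2. Median gene values ranged from 8.75 to 8.94 over the arrays, and arrays of one group correlated at 0.985 to 0.994 over all tested genes. Medians over all probe sets were 6.04 to 6.06 in shCont, 6.15 to 6.19 with shTdp-43-1 and 6.06 to 6.09 with shTdp-43-2. The summed level of 3 inhibitory neuron markers was 11.68 to 11.77 in shCont, 12.10 to 12.27 with shTdp-43-1 and 11.73 to 11.97 with shTdp-43-2 (log2). For 4 excitatory neuron markers it was 12.34 to 12.45, 12.11 to 12.38 and 11.93 to 12.09, for 7 astrocyte markers 13.26 to 13.56, 13.20 to 13.28 and 13.10 to 13.20, and for 6 fibroblast and pericyte markers 11.57 to 11.72, 11.25 to 11.40 and 11.21 to 11.24. For 6 general neuron markers the summed level was 14.51 to 14.63, 14.44 to 14.58 and 14.50 to 14.63, and 1 of them, Nefl, was called lower with each hairpin. With the mean of both hairpins 1 of the 3 inhibitory markers was called higher, and 1 of the 4 excitatory markers higher and 2 lower. Called lower with that mean were 1 of the 7 astrocyte markers and 2 of 5 tested fibroblast and pericyte markers. These 2 were Dcn (-0.72) and Pdgfrb (-0.63), while Col1a1, Col1a2 and Col3a1 gave 0.14, 0.14 and 0.15 and were not called. Lum, in the sum but not tested, had means of 8.61 in shCont, 7.35 with shTdp-43-1 and 8.85 with shTdp-43-2. The mean of both hairpins leaves out Gad1, called higher with shTdp-43-1 (0.29, limma adjusted p = 0.0372) and lower with shTdp-43-2 (-0.32, adjusted p = 0.014). It also leaves out the progenitor marker Nes, called higher with shTdp-43-2 (0.60, adjusted p = 0.00157). Left out as well are the astrocyte markers Slc1a2 (-0.35, adjusted p = 0.0247) and Gja1 (-0.36, adjusted p = 0.0304), both called lower with shTdp-43-2. With that hairpin 3 of the 7 astrocyte markers were called lower. The part of such shifts in the values below was not tested, and in these bulk cultures a change in the number of cells that express a gene and a change of RNA per cell cannot be told apart.

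Tceal3, Tceal5 and Tceal6 were higher with both hairpins than with the control, by between 1.50-fold and 2.24-fold, while Tceal1, Bex1, Bex2 and Bex4 did not pass the test with either. Tceal8 passed it with shTdp-43-2 and not with shTdp-43-1, and its difference between the hairpins did not itself pass. With limma's adjusted p under 0.05, 3 of the 8 measured members were called higher with shTdp-43-1, where 5.16% of all genes were, and 4 of 8 with shTdp-43-2, where 7.76% were. With the mean of both hairpins 3 of 8 were called higher, against 7.42% of genes, and 0 were called lower in any of these comparisons, also at an unadjusted p under 0.05. Between the hairpins themselves limma called 0 members, with 2 at an unadjusted p under 0.05, against 11.5% of genes called. The members were put together with earlier results of these arrays known, so nothing is read from these counts. Over the 8 members the median log2 change came to 0.08 for shTdp-43-1 and 0.24 for shTdp-43-2, beside medians of 0.006 and -0.008 over all genes.

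**Figure D1:**
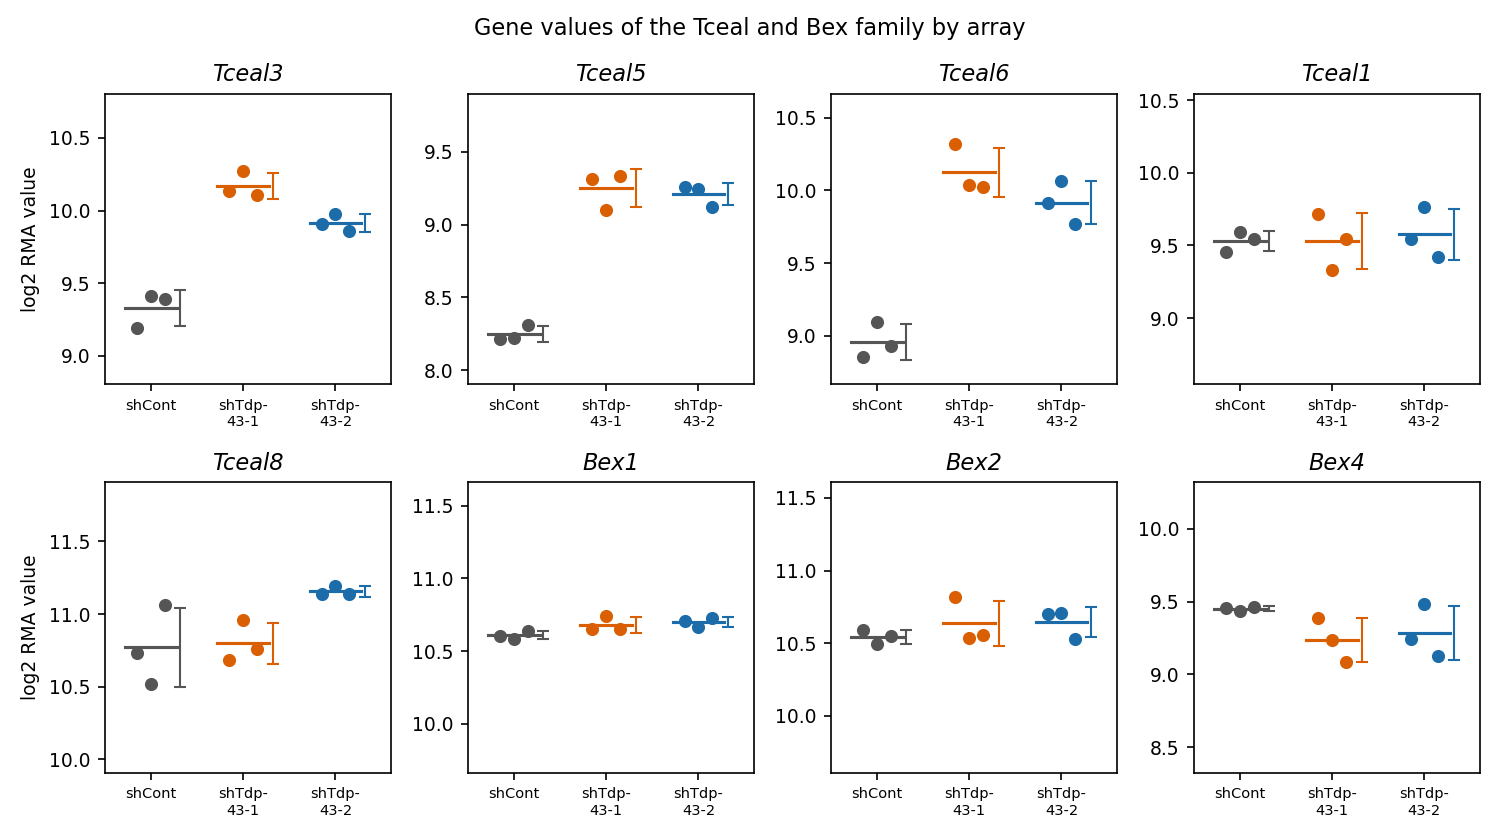
Gene value of each measured member on each array (log2 RMA value, vertical axis, each panel on its own range of equal height), with a point per array, a line at the group mean and a bar of 1 SD either side (n = 3). Tceal3, Tceal5 and Tceal6 sit higher with both hairpins than with shCont, Tceal8 sits higher with shTdp-43-2, and the values of Tceal1 and Bex2 overlap between groups.

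Tceal6 read 8.85, 9.10 and 8.93 on the shCont arrays, 10.32, 10.03 and 10.02 with shTdp-43-1 and 9.91, 10.06 and 9.77 with shTdp-43-2. Every hairpin array lies above every control array, as for 7.72% of all genes. The change was 1.17 on the log2 scale (SE 0.111), or 2.24-fold, with shTdp-43-1 and 0.96 (SE 0.111), or 1.94-fold, with shTdp-43-2. These changes put Tceal6 at rank 11 and rank 72 of the 16770 genes, counted from the largest rise.

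Tceal5 read 8.21, 8.22 and 8.31 in shCont, 9.32, 9.10 and 9.33 with shTdp-43-1 and 9.26, 9.25 and 9.12 with shTdp-43-2. Again the hairpin arrays all lie above the control arrays, as for 7.72% of all genes, while both hairpins overlap each other. The change was 1.00 (SE 0.0869), or 2.00-fold, with shTdp-43-1 and 0.96 (SE 0.0869), or 1.95-fold, with shTdp-43-2, ranks 22 and 71. The rises of Tceal5 and Tceal6 were known before the members were put together and are given without a p.

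Tceal3 read 9.19, 9.41 and 9.39 in shCont, 10.13, 10.27 and 10.11 with shTdp-43-1 and 9.91, 9.98 and 9.86 with shTdp-43-2. The 3 groups do not overlap, with shCont lowest and shTdp-43-1 highest. Hairpin arrays all above the control arrays were seen for 7.72% of all genes, and the share with 3 separate groups was not computed. Tceal3 rose by 0.84 (SE 0.0875; limma adjusted p = 0.000302), or 1.79-fold, with shTdp-43-1. It rose by 0.58 (SE 0.0875; limma adjusted p = 0.000775), or 1.50-fold, with shTdp-43-2. The difference between the hairpins was -0.26 (limma adjusted p = 0.0841), with a 95% interval of -0.45 to -0.06 before adjustment for the number of genes.

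These 3 genes also moved alike from array to array, mostly through the difference between groups. Over the 9 arrays Pearson's r was 0.968 for Tceal5 and Tceal6, 0.961 for Tceal3 and Tceal6 and 0.924 for Tceal3 and Tceal5. With the group means taken out, r was 0.43, 0.38 and -0.19 for the same pairs. The pairs share their arrays, their normalization and similar sequence, so these are descriptions.

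Tceal8 read 10.73, 10.52 and 11.06 in shCont, 10.68, 10.96 and 10.76 with shTdp-43-1 and 11.13, 11.20 and 11.13 with shTdp-43-2. The shTdp-43-2 arrays lie above all other arrays, by a small margin over shCont replicate 3, and shTdp-43-1 overlaps the control. All shTdp-43-2 arrays lie above the control for 15.3% of genes. Tceal8 rose by 0.38 with shTdp-43-2 (SE 0.125; limma adjusted p = 0.0468). The change with shTdp-43-1 was 0.03 (limma adjusted p = 0.907), with a 95% interval of -0.25 to 0.30. The difference between the hairpins, 0.36, had an adjusted p of 0.0909 in limma. The call with shTdp-43-2 held under 5 of 18 alternative settings. Its adjusted p ran from 0.00783 without shCont replicate 3 to 0.183 without shCont replicate 2.

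Tceal1, a nuclear phosphoprotein that modulates transcription, read 9.46, 9.59 and 9.54 in shCont, 9.72, 9.33 and 9.54 with shTdp-43-1 and 9.54, 9.76 and 9.42 with shTdp-43-2. The groups overlap fully. Its change was -0.00 with shTdp-43-1 (95% interval -0.25 to 0.25) and 0.05 with shTdp-43-2 (95% interval -0.20 to 0.30), intervals that leave out a change of the size seen in Tceal3, Tceal5 or Tceal6.

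Bex1, which binds the p75 receptor, read 10.60, 10.58 and 10.64 in shCont, 10.65, 10.74 and 10.65 with shTdp-43-1 and 10.71, 10.66 and 10.73 with shTdp-43-2. All hairpin arrays lie above all control arrays, by little, as do those of 7.72% of all genes. The changes of 0.07 (95% interval -0.08 to 0.23) and 0.09 (95% interval -0.06 to 0.25) did not pass the test.

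Bex4 read 9.45, 9.43 and 9.47 in shCont, 9.39, 9.23 and 9.08 with shTdp-43-1 and 9.24, 9.48 and 9.12 with shTdp-43-2. All shTdp-43-1 arrays lie below the control, as they do for 18.1% of genes, and shTdp-43-2 overlaps it. The changes were -0.22 (95% interval -0.45 to 0.02) and -0.17 (95% interval -0.40 to 0.06), and neither passed the test.

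Bex2 read 10.59, 10.49 and 10.55 in shCont, 10.81, 10.54 and 10.56 with shTdp-43-1 and 10.70, 10.71 and 10.53 with shTdp-43-2. As a gene it gave 0.09 (95% interval -0.11 to 0.30) and 0.10 (95% interval -0.11 to 0.31). This mean hides probe sets that went opposite ways.

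Because members resemble each other in sequence, each probe set was also read alone, in a fit of the 628416 probe sets that reached the table median. All 8 probe sets of Tceal3 were higher with each hairpin, by 0.32 to 1.20 with shTdp-43-1 and 0.14 to 0.98 with shTdp-43-2. All 7 of Tceal5 were higher, by 0.69 to 1.43 and 0.50 to 1.42, and all 3 of Tceal6, by 0.81 to 1.36 and 0.31 to 1.31. The 4 probe sets that name both Tceal3 and Tceal6 were higher by 0.93 to 1.21 and 0.60 to 0.91. The values of these genes therefore do not rest on a single probe set. For Tceal6, 4468878 and 4655317 rose by 1.25 and 1.31 with shTdp-43-2 and 5574935 by 0.31. Whether the probe sets of one gene are independent readings was not tested, since exon coordinates and probe letters were not used. The 3 probe sets of Tceal8 were higher with shTdp-43-2 by 0.23 to 0.47. Bex1 and Bex4 had probe sets on both sides of 0 with each hairpin: for shTdp-43-2, 8 of the 10 of Bex1 were higher and 10 of the 13 of Bex4 lower. Taken one at a time, 5 of the 56 member probe sets, shared ones included, passed limma's adjusted p with shTdp-43-1 (0.0843% of all probe sets were called), 8 with shTdp-43-2 (1.54%) and 10 with the mean of both hairpins (0.804%). Of these, the 5 with shTdp-43-1 all lost their call in each fit that left out a shCont or a shTdp-43-1 array, although their direction held. The members were put together with earlier results of these arrays known, and several called probe sets name the same gene. Nothing is therefore read from these counts of probe sets.

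**Figure D2:**
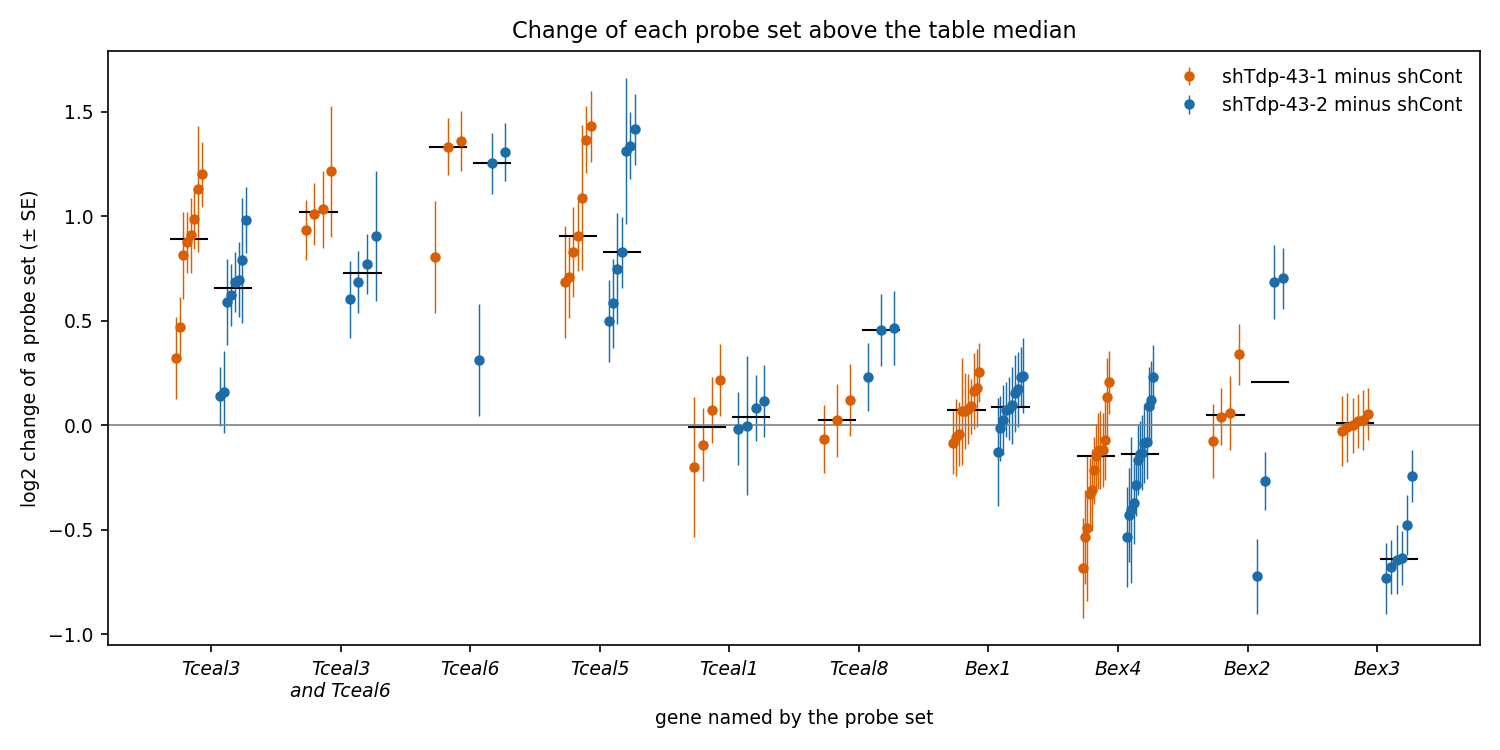
Log2 change of each kept probe set against shCont (vertical axis, points, with bars of 1 standard error), by the gene it names (horizontal axis) and by hairpin (orange shTdp-43-1, blue shTdp-43-2), with black lines at the median of each set. All probe sets of Tceal3, Tceal5 and Tceal6 lie above 0, those of Bex2 split with shTdp-43-2, and the 6 of Bex3 lie below 0 with shTdp-43-2.

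Single probe sets show the rises array by array. Tceal6 4655317 read 10.11, 10.22 and 10.38 in shCont, 11.67, 11.50 and 11.56 with shTdp-43-1 and 11.56, 11.58 and 11.50 with shTdp-43-2. Tceal5 4821923 read 7.04, 6.65 and 6.63 in shCont, 8.28, 7.97 and 8.35 with shTdp-43-1 and 8.13, 8.17 and 8.26 with shTdp-43-2. Tceal3 4433975 read 9.37, 9.43 and 9.64 in shCont, 10.83, 10.78 and 10.42 with shTdp-43-1 and 10.49, 10.39 and 10.49 with shTdp-43-2. In each of these the hairpin arrays lie well above the control arrays with no overlap. They are the kept probe sets with the largest rise of their gene with the mean of both hairpins, and others separate less. Tceal3 4814861 and Tceal5 4698039 overlap the control with both hairpins. Tceal3 4903222 and 5478179 overlap it with shTdp-43-2, and Tceal5 5248499 with shTdp-43-1. The share of all probe sets that separate was not computed. The dimmest kept probe set, Tceal6 5574935, read 6.33, 6.90 and 6.00 in shCont, 7.60, 7.12 and 6.94 with shTdp-43-1 and 6.67, 7.07 and 6.44 with shTdp-43-2, so that shTdp-43-2 overlaps the control. Against the other Tceal6 probe sets it moved by -0.97 with shTdp-43-2 in limma's diffSplice test (adjusted p = 0.0355). That call was lost in 7 of 11 alternatives, among them the fit with no filter on dim probe sets.

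Some probe sets of different members had almost the same profile. Tceal3 4521350 and Tceal5 4405455 correlated at 0.991 over the 9 arrays and at 0.970 with the group means taken out. For Tceal3 4534562 and Tceal5 4674655 the values were 0.969 and 0.859. Bex1 5316639 and Bex4 4638111 gave 0.921 and 0.921, and Bex1 4856659 and Bex4 5547933 gave 0.919 and 0.964. In these pairs the arrays of one group deviate together in both genes. Probe letters were not used here, so whether such probe sets read one transcript or both was not tested.

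Bex2 had 4 probe sets that moved apart with shTdp-43-2. Bex2 5022660 read 9.85, 9.89 and 10.04 in shCont, 10.46, 10.23 and 10.10 with shTdp-43-1 and 10.67, 10.60 and 10.61 with shTdp-43-2, and rose by 0.70 with shTdp-43-2 (limma adjusted p = 0.0461), a call kept in 2 of 11 alternatives. Bex2 4367242 read 7.46, 7.43 and 7.62 in shCont, 7.82, 7.37 and 7.50 with shTdp-43-1 and 8.14, 8.45 and 7.98 with shTdp-43-2. Both have all shTdp-43-2 arrays above the control. Bex2 5432033 read 11.45, 11.07 and 11.06 in shCont, 11.28, 11.11 and 10.97 with shTdp-43-1 and 10.71, 10.46 and 10.25 with shTdp-43-2. Bex2 5017432 read 13.61, 13.59 and 13.48 in shCont, 13.70, 13.43 and 13.67 with shTdp-43-1 and 13.29, 13.32 and 13.26 with shTdp-43-2. These have all shTdp-43-2 arrays below the control, so that the gene mean changed little while its parts went both ways. Taken alone, 4367242, 5432033 and 5017432 did not pass limma's test with shTdp-43-2 (adjusted p = 0.101, 0.0873 and 0.46). The share of all probe sets whose arrays separate in this way was not computed, so nothing is read from the separation itself.

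The test of each probe set against the rest of its gene (limma's diffSplice, adjusted over 248701 probe sets) called 4 member probe sets with shTdp-43-2, where 1.24% of all probe sets were called, and 0 of 52 with shTdp-43-1, where 0.494% were and 6 had an unadjusted p under 0.05. Besides Tceal6 5574935 these were Bex2 5432033 at -1.10 (adjusted p = 0.000253), Bex2 5022660 at 0.80 (adjusted p = 0.0103) and Bex2 4367242 at 0.78 (adjusted p = 0.0139). The difference was also called between the hairpins themselves, where 0.44% of probe sets were: -0.87 for Bex2 5432033 (adjusted p = 0.0104) and 0.82 for Bex2 4367242 (adjusted p = 0.0187), shTdp-43-2 minus shTdp-43-1. The call of Bex2 5432033 against shCont held under all 11 alternatives tried, with an adjusted p of 0.000174 to 0.0122. Those of the other Bex2 probe sets were each lost in 3 of 11, for 5022660 without shCont replicate 1, shCont replicate 2 or shTdp-43-2 replicate 3, with an adjusted p up to 0.101. For 4367242 they were lost without shCont replicate 1, shCont replicate 2 or shTdp-43-2 replicate 2, with an adjusted p up to 0.107. In the comparison between hairpins the call of 5432033 was lost in 2 of 11 and that of 4367242 in 3 of 11. Each Bex2 probe set is compared with the other Bex2 probe sets, so the Bex2 calls depend on each other and do not count as separate findings.

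**Figure D3:**
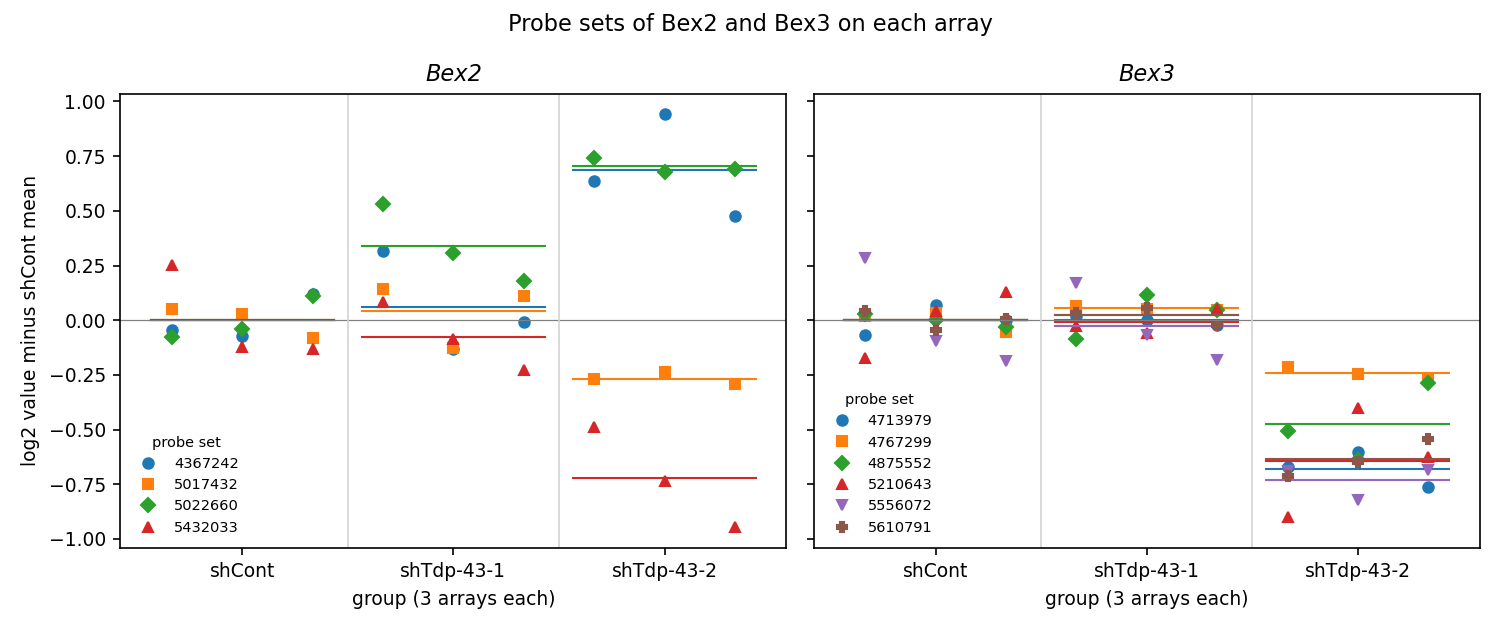
Log2 value of each kept probe set of Bex2 (left) and Bex3 (right) minus its mean over the shCont arrays (vertical axis), on each of the 3 arrays of each group, with lines at group means. With shTdp-43-2 a pair of Bex2 probe sets sits above the control, at 0.68 and 0.70, and a pair below it, at -0.27 and -0.72, while the 6 probe sets of Bex3 sit between -0.73 and -0.24.

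Bex3, also called Nade, is a relative that binds the p75 receptor and promotes cell death with it, and it bears on Bex2 because probe sets of the genes moved alike. Bex3 read 12.54, 12.52 and 12.49 in shCont, 12.55, 12.53 and 12.50 with shTdp-43-1 and 11.90, 11.96 and 11.99 with shTdp-43-2. The shTdp-43-2 arrays lie well below all others, a separation whose share over all genes was not computed. Bex3 fell by 0.57 with shTdp-43-2 (SE 0.0704; limma adjusted p = 0.000231), to 67.5% of the control, and gave 0.01 with shTdp-43-1 (95% interval -0.14 to 0.16). The hairpins differed by -0.58, shTdp-43-2 minus shTdp-43-1 (limma adjusted p = 0.000539), a call kept in all 17 alternatives tried. Bex2 5432033 and Bex3 5556072 correlated at 0.946 over the arrays and at 0.725 with the group means taken out. Whether Bex2 5432033 reads Bex3 transcripts was not tested.

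The other relatives measured did not pass the test with either hairpin. Tceal9 gave -0.11 (95% interval -0.31 to 0.09) and -0.04 (95% interval -0.24 to 0.17). Bex6, which lies on chromosome 16, gave 0.14 (95% interval -0.11 to 0.39) and 0.26 (limma adjusted p = 0.129), with all shTdp-43-2 arrays above the control, as for 15.3% of genes.

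The members that rose are not a block on the chromosome. Tceal6 lies at one end of the order, Tceal5 in the middle and Tceal3 near the other end, with Bex2, Bex4, Tceal8 and Bex1 among them. Of 125 other genes listed between the members or within 1 Mb of them, 31 were measured, and their median change with the mean of both hairpins was -0.04, beside -0.002 over all genes. With that mean 3 were called higher and 3 lower, where 7.42% and 11.9% of all genes were, the largest being Armcx4 at 0.53, Rab9b, a small GTPase of the endosomal pathway, at 0.48, Il1rapl2 at -0.42 and Glra4, a glycine receptor subunit, at 0.39. With shTdp-43-1, 4 were called higher and 1 lower, where 5.16% and 5.96% of all genes were. With shTdp-43-2, 2 were called higher and 8 lower, where 7.76% and 14.1% were. The Armcx and Gprasp genes, neighbours of the family, gave 1 higher and 1 lower of 8 measured with the mean of both hairpins, and 1 higher and 4 lower with shTdp-43-2. Among these, Armcx6, whose promoter holds the same spaced letters as Tceal3, gave -0.00 with shTdp-43-1 and with shTdp-43-2 fell by 0.43 (adjusted p = 0.00707), and Armcx1 gave 0.25 (adjusted p = 0.201) and -0.03 (adjusted p = 0.894). The genes with that arrangement of letters thus include genes called higher, called lower and not called.

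**Figure D4:**
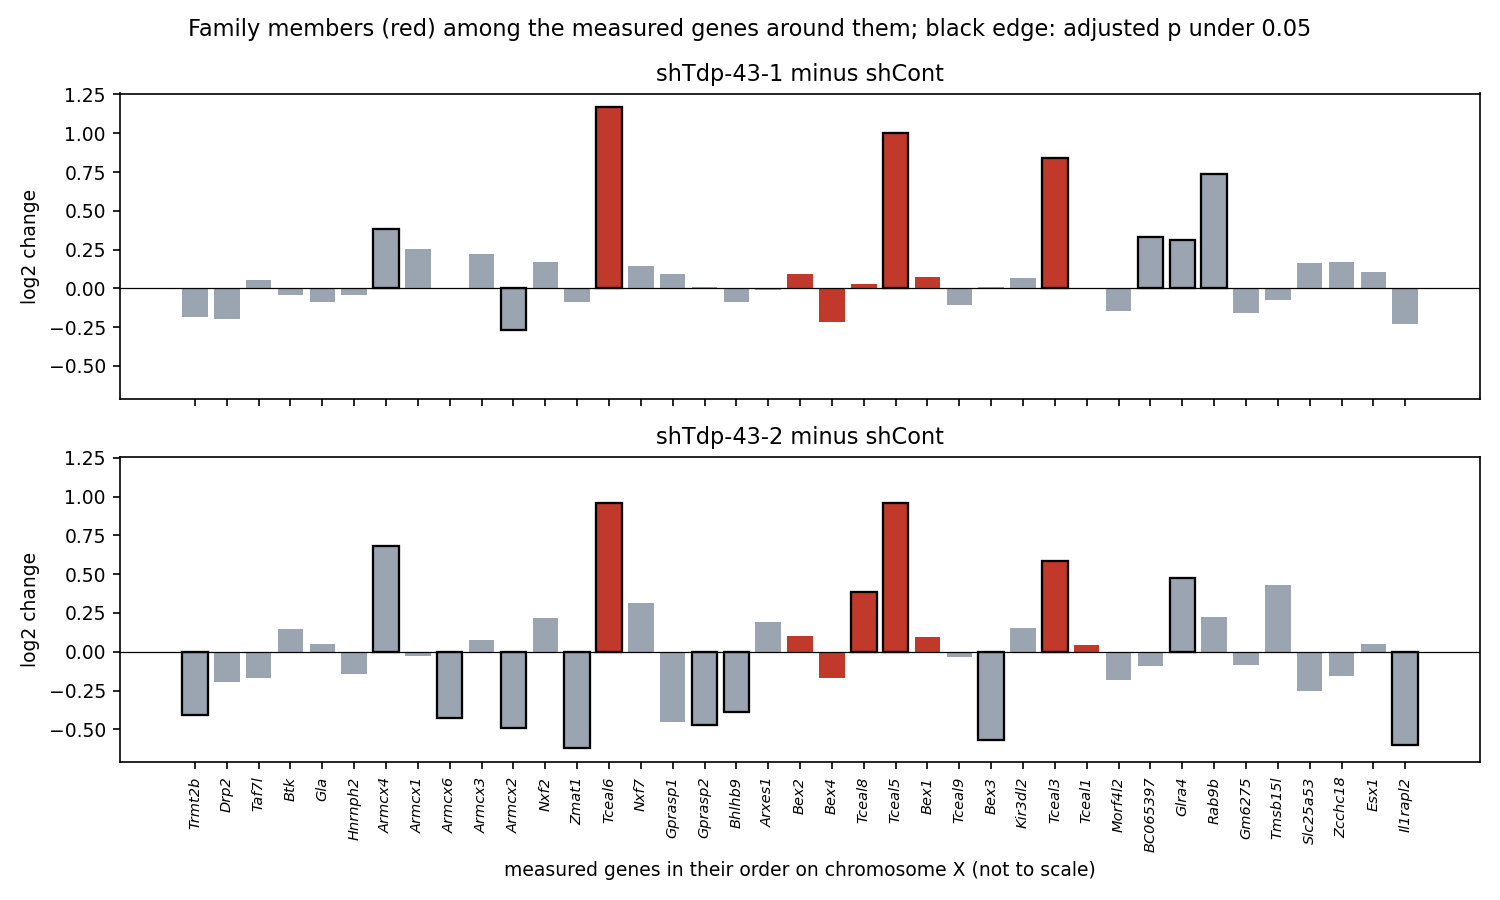
Log2 change against shCont (vertical axis) of each measured family member (red) and each other measured gene around them (grey), in their order along chromosome X without scale, with shTdp-43-1 above and shTdp-43-2 below; a black edge marks a limma adjusted p under 0.05. Tceal6 and Tceal5 are the tallest bars with both hairpins, Tceal3 was called higher with both, and 8 of the grey genes were called lower with shTdp-43-2.

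Elongation factors, with which Tceal proteins share a name, were read from a list that includes TFIIS genes, the Spt and Nelf factors and P-TEFb. Of 31 measured, 2 were called higher and 5 lower with the mean of both hairpins, and their median change was -0.02, against the same shares and median over all genes. Larp7, a protein of the 7SK particle, in which P-TEFb is kept inactive, rose by 0.68 (limma adjusted p = 0.000313). Aff4, a scaffold of the super elongation complex, rose by 0.53 (adjusted p = 0.00227). Supt16, a subunit of the histone chaperone FACT, fell by 0.43 (adjusted p = 0.0055). Tcea2, a TFIIS gene, fell by 0.35 (adjusted p = 0.0434). Of 12 measured partners of the p75 receptor 1 was called with the mean of both hairpins, lower, a share no larger than the 11.9% of all genes; it is the adaptor Traf4 at -0.24 (adjusted p = 0.0292).

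Of the 15585 genes compared, those whose values over the 9 arrays were most like the mean of the members' centred values were Slc22a5, a carnitine transporter, at Pearson's r = 0.985, Dnajc27 and Plxnc1, a semaphorin receptor, both at 0.983, Ccn3, a secreted matrix protein, at 0.983 and Slc27a4, a fatty acid transporter, at 0.982. The points share arrays and the difference between groups, so this is a description without a test.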

How the data were processed

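RNA was measured on 9 Affymetrix Mouse Exon 1.0 ST arrays, 3 per group, from 100 ng each. The authors deposited a table of log2 values, 1 for each probe set on each array; per the labels it came from RMA in an all-exon run of Expression Console, and the submitters' processing notes add the build mm9. Versions are not given in the sources. RMA brings all arrays to one distribution, so a change shared by most probes is largely removed, and it pulls dim probe sets towards background. The number of arrays limits the precision.

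Of 1256831 probe sets, 318760 have 1 symbol in the platform annotation, 6684 several and 931387 none. Symbols were updated through RefSeq (18006 current, 4227 updated, 63 kept as given). Gene values are means of at least 3 kept probe sets. All 3 groups were fitted together in limma 3.58.1 (R 4.3.3; lmFit, eBayes, 6 residual degrees of freedom), with Benjamini-Hochberg adjustment over all 16770 genes or all 628416 probe sets and calls at an adjusted p under 0.05; diffSplice compared probe sets with the rest of their gene. The procedure was tested on simulated data. An exact permutation test of 3 against 3 cannot go below 0.1 and was not used.

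The members and lists were chosen with earlier results of these data known. The text names all members and their measured relatives, up to 4 called genes of each other list by size of change, and the 5 genes most correlated with the members. Armcx1 and Armcx6 and the probe sets described singly were chosen after their values or sequences were seen. Alternatives varied the dim filter, the gene summary, the scaling, the block and the arrays used. Probe letters, exon coordinates and protein sequences were not used here.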

Additional observations from a re-analysis of the deposited data

Results flagged for a closer look

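Bex3 differed between the hairpins: shTdp-43-2 minus shTdp-43-1 was -0.58 on the log2 scale (limma adjusted p = 0.000539), with means of 11.95 and 12.53, lower in 3 of 3 arrays. Probe sets of Bex2, measured against the rest of their gene, differed between the hairpins as well, by 0.82 for 4367242 (limma's diffSplice, adjusted p = 0.0187) and by -0.87 for 5432033 (adjusted p = 0.0104).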

How the results depend on the processing

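The rises of Tceal3, Tceal5 and Tceal6 with each hairpin kept their direction and their call in all 18 alternatives, with changes of 0.77 to 1.05, 0.96 to 1.37 and 0.85 to 1.35 for shTdp-43-1 and 0.51 to 0.79, 0.94 to 1.34 and 0.78 to 1.26 for shTdp-43-2. The fall of Bex3 with shTdp-43-2 kept its call in all 18. With the median over probe sets in place of the mean, genes called fell to 1041 from 1865 with shTdp-43-1, to 2103 from 3234 with the mean of both hairpins and to 1198 from 1934 between hairpins. Leaving out 1 array gave 784 to 2224, 1631 to 3487 and 964 to 1926 genes. Without both shTdp-43-1 replicate 2 and shTdp-43-2 replicate 3, an alternative chosen after seeing the data because these arrays deviated together, 1041 genes were called between hairpins. Centring each array on its median changed the split of calls from 865 higher and 1000 lower to 1214 and 884 with shTdp-43-1, from 1301 and 2366 to 2178 and 1717 with shTdp-43-2, from 1245 and 1989 to 1880 and 1444 with their mean and from 708 and 1226 to 1205 and 1126 between hairpins. Quantile normalization gave 1793 and 2113 with shTdp-43-2 and 1141 and 1281 between hairpins. Leaving out 1 array, limma called 0 to 4 member probe sets with shTdp-43-1, 4 to 7 with shTdp-43-2 and 0 to 10 with the mean, from 5, 8 and 10. Members called higher between hairpins ranged from 0 to 1, the 1 being Tceal8 without shCont replicate 3. Tests against the rest of the gene, left-out arrays added after seeing the data, called 1 to 4 member probe sets with shTdp-43-2, 0 to 2 with the mean and 0 to 2 between hairpins. Same-numbered arrays of different groups deviated together unevenly (correlations of -0.38 to 0.59 over genes). Differently numbered ones gave -0.66 to 0.68, so the numbers were not taken to pair the samples. The pairs of replicate 1 gave 0.34, 0.40 and 0.59, and what these arrays share was not tested. With the replicate number as a block, member probe sets called with shTdp-43-1 went from 5 to 0, and those called against the rest of their gene from 0 to 1 with shTdp-43-1 and from 1 to 5 with the mean; genes called were 2353, 4107, 3691 and 2338 for both hairpins, their mean and the difference between hairpins. The causes of these shifts were not tested.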
